A study of Homo sapiens with 6 samples.

Results

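The WNT and beta-catenin signalling genes described here were 59 genes listed by their known role in the pathway and not by a threshold on their values, although the list was drawn up with earlier results of these data known. Of these, 54 had a row among the 15585 genes of the 6-library count table, and the other 5 (1 ligand, 1 receptor, 2 secreted antagonists and 1 feedback gene) were not analysed here. A filter on low counts left 46 of the 54 for testing, and the remaining 8 are given by their read counts. The members were grouped into ligands, ligand secretion genes, receptors, secreted antagonists, dishevelled genes, the destruction complex, beta-catenin with its coactivators, TCF/LEF factors, TLE corepressors, feedback and receptor turnover genes, and planar polarity genes.

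WNT ligands are lipid-modified secreted proteins that bind Frizzled receptors and LRP co-receptors. Without a ligand, a cytoplasmic complex of AXIN, APC, casein kinase 1 and GSK3 marks beta-catenin for degradation. With a ligand, dishevelled proteins act at the membrane, the complex is inhibited, and beta-catenin enters the nucleus to act with TCF/LEF factors in place of the TLE corepressors. Several of the induced genes encode inhibitors of the pathway, and other WNT receptors act without beta-catenin in planar cell polarity. In bone, WNT signalling is known for its role in the formation of osteoblasts.

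The libraries were RNA-seq of U2OS, a human osteosarcoma cell line. Cells were transfected for 48 h with control siRNA (siCTR, 3 libraries) or with siRNA against LSD1 (siLSD1, 3 libraries), a histone lysine demethylase encoded by KDM1A. Every group was of the same line and was transfected, and the labels do not say which LSD1 siRNA was used. The labels do not state that the libraries came from separate cultures, so p-values measure only the spread between these libraries, which may be technical. The comparison asked which WNT pathway mRNAs differed after LSD1 depletion.

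Each library held 12513511 to 13561344 counted reads. KDM1A was at 473, 506 and 489 CPM (reads scaled to the library total, with TMM factors) after control siRNA and at 82.7, 96.1 and 92.4 CPM after LSD1 siRNA. It fell by 2.44 on the log2 scale (SE 0.11, adjusted p = 2.27e-07, edgeR's quasi-likelihood test, Benjamini-Hochberg). Of markers of bone tumour and mesenchymal cells, VIM (428 FPKM in siCTR, a read count divided by gene length and library total) and ALPL (123 FPKM) were high and COL1A1 was at 1.62 FPKM, whereas RUNX2, SPARC and SP7 were at or under 0.05 FPKM. KRT8 and KRT18, keratins of simple epithelia, were at 450 and 557 FPKM, and PTPRC, HBB, PECAM1 and KRT5 were near 0. Libraries differed in their GC trend within both groups. The median log2 deviation from the 6-library mean of genes with at least 58.2% GC, minus that of genes with at most 40.4% GC, was 0.22, −0.02 and −0.08 for siCTR replicates 1 to 3. For siLSD1 replicates 1 to 3 it was 0.32, 0.02 and −0.43. The median GC content was 52.0% over the tested members and 47.9% over all tested genes. GC content was taken from the longest annotated transcript of each gene.

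Few WNT pathway genes differed between siCTR and siLSD1 cells beyond the spread of the libraries, and DKK3 was the member that passed the adjusted threshold. DKK3 reached the minimum of the filter on low counts only in the siLSD1 libraries, the group in which it was high. Of the 46 members tested, 1 rose and 0 fell at an adjusted p under 0.05 with edgeR's quasi-likelihood test, where 1.07% of all 11844 tested genes rose and 0.371% fell. DESeq2 also called 0 members lower, and limma-voom called 0 in either direction. At an unadjusted p under 0.05, 4 members were higher (DKK3, GSK3B, PYGO2 and TLE4; 8.7%) and 4 were lower (WNT9A, FZD3, LEF1 and NKD1; 8.7%). The shares over all tested genes were 7.48% higher and 6.55% lower. In either direction, 17.4% of the members and 14.0% of all tested genes were called, so the members' share was near the background.

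The 3 siLSD1 values lay wholly above the 3 siCTR values in 4 members (8.7%), against 11.4% of all tested genes. They lay wholly below in 7 members (15.2%), against 9.97%. These 7 were WNT9A, FZD1, FZD3, TCF7L2, LEF1, TLE3 and NKD1. The median log2 fold change was −0.01 over the members and −0.01 over all tested genes, with 25 members (54.3%) below 0 against 52.7% of all tested genes.

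**Figure D1:**
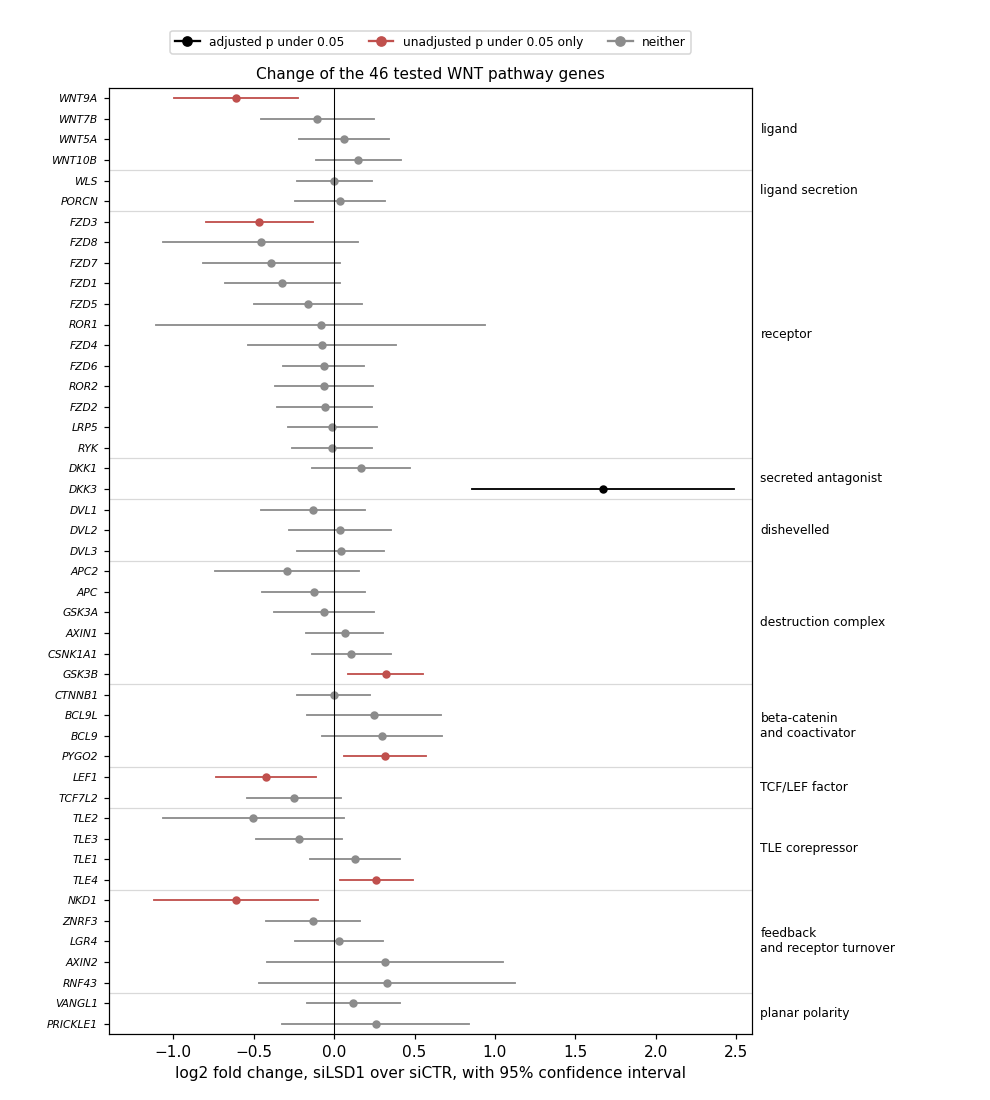
Log2 fold change of siLSD1 over siCTR for each of the 46 tested members, by role, with the 95% confidence interval of edgeR's fit (3 libraries per group). DKK3, at 1.67, is the 1 member with an adjusted p under 0.05, and most other intervals include 0.

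A fit with a lowess correction of each library for GC content and transcript length (the GC-corrected fit) changed the calls, and 6 members passed the adjusted threshold. DKK3, GSK3B and PYGO2 were higher and WNT9A, LEF1 and NKD1 were lower. In that fit 871 of 11759 genes passed the adjusted threshold and 24.3% of all genes had an unadjusted p under 0.05. For these 6 genes the direction was that of the uncorrected fit.

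Promoters of 4 of the 8 members with an unadjusted p under 0.05 were set out to show what genes with similar changes hold before their start, and for DKK1, the member with TCF/LEF words. The sequences are the 250 bases before the gene start in the RefSeq table (GRCh38.p14), 5′ to 3′ on the gene's strand. CpG dinucleotides are in capitals in the first 4, which are of WNT9A (chr1:227947933-227948182, minus strand), LEF1 (chr4:108166302-108166551, minus strand), GSK3B (chr3:120094448-120094697, minus strand) and PYGO2 (chr1:154961783-154962032, minus strand).
WNT9A: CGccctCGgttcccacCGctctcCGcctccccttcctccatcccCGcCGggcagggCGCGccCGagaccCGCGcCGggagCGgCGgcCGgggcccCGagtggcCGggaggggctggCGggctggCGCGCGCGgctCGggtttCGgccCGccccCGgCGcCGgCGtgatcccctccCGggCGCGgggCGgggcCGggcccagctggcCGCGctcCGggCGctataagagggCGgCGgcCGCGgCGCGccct
LEF1: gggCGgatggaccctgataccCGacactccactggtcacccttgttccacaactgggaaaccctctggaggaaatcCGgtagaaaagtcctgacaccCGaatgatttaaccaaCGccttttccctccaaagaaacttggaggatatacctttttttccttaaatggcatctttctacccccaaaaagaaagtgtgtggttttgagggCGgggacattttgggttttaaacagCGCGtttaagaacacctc
GSK3B: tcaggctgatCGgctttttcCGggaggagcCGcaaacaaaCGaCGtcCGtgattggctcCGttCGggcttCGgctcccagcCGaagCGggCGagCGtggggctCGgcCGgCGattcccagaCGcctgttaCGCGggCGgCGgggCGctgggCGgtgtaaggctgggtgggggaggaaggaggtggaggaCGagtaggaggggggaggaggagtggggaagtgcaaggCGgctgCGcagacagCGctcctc
PYGO2: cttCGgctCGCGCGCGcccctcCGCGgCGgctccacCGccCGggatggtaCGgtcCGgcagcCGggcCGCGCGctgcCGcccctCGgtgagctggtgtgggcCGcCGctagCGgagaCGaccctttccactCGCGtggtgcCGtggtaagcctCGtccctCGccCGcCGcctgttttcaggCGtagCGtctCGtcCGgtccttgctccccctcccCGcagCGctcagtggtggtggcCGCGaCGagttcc
WNT9A had 44 CpGs and LEF1 had 8, although both mRNAs were at lower values in siLSD1 libraries. PYGO2 had 38, GSK3B had 27 and TLE4, not printed, had 20. For LEF1, GSK3B, PYGO2 and TLE4 the RefSeq start lies inside the bounds of the GENCODE gene. A count at least as high was found in 0.776% of the 27305 RefSeq promoters for WNT9A, 3.16% for PYGO2, 17.3% for GSK3B, 32.1% for TLE4 and 55.8% for LEF1. The median was 11 CpGs over all these promoters and 21 over the 9372 promoters of tested genes, so the tested genes were the more CpG-rich set. Neither methylation nor LSD1 binding was measured in these libraries.

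Core words of TCF/LEF binding sites were searched on both strands of the 250 bases. The word CTTTGAT was present in 2.28% of all 27305 promoters, CTTTGAA was in 3.88%, CTTTGTT was in 4.54% and CTTTGTA was in 2.34%. Among the 9372 promoters of tested genes the shares, in this order, were 1.3%, 2.3%, 2.56% and 1.37%. These words share their first 5 letters and cannot overlap at the same start. Of the 41 members with an entry, DKK1 alone held any (chr10:52314031-52314280, plus strand), with words starting 95 and 76 bases before the gene start, in capitals here.
DKK1: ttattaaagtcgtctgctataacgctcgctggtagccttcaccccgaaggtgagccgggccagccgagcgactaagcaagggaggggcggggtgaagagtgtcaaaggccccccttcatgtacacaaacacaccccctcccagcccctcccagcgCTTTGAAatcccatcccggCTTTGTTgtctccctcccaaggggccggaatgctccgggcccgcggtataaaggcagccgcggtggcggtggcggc
A match is a description of the letters and not of a bound site. DKK3, FZD3 and NKD1 had no entry.

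Most members were expressed at 1 FPKM or more. In the siCTR libraries 38 of the 54 members had a mean of at least 1 FPKM and 21 had at least 10 FPKM, and in the siLSD1 libraries these counts were 37 and 20. The highest means over all 6 libraries were those of the kinase gene CSNK1A1 (53.3 FPKM), the R-spondin receptor gene LGR4 (48.8 FPKM), the receptor gene RYK (45.5 FPKM) and the ligand gene WNT10B (42.6 FPKM). In CSNK1A1 49.3% of the exonic bases are also exonic in a long noncoding gene on the same strand. The ranges over libraries of these 4 genes overlapped in part, from 46.9 to 58.2 FPKM for CSNK1A1, 42.8 to 56.2 FPKM for LGR4, 41.8 to 50.3 FPKM for RYK and 37.7 to 50.2 FPKM for WNT10B. The pathway's usual feedback reporter AXIN2 was low, at 0.43 ± 0.05 FPKM in siCTR and 0.53 ± 0.22 FPKM in siLSD1 libraries (SD, n = 3).

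**Figure D2:**
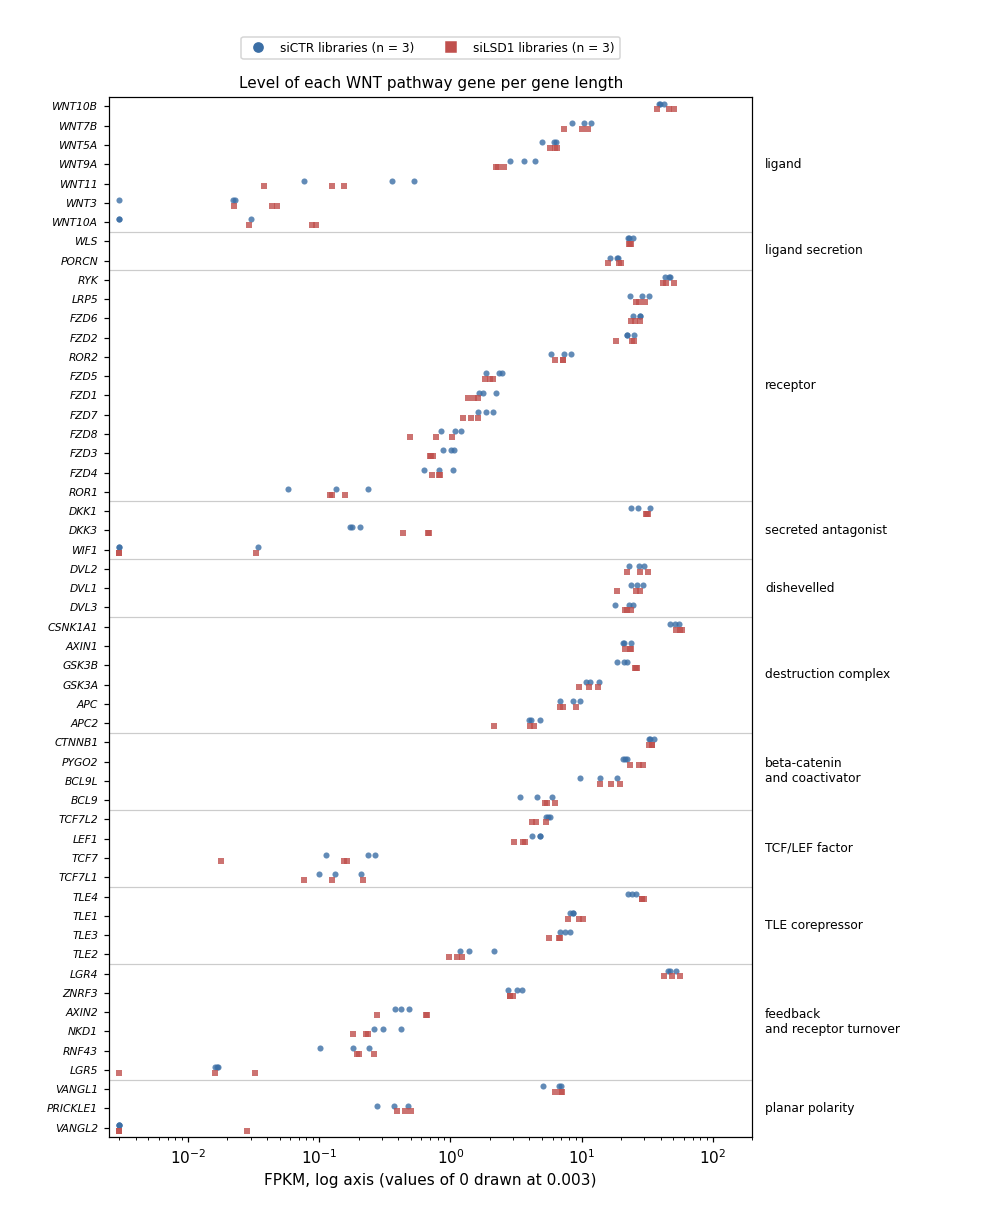
FPKM of each of the 54 members in each library on a log axis, ordered within a role by the siCTR mean, with values of 0 drawn at 0.003. Circles are the 3 siCTR and squares the 3 siLSD1 libraries. In most members the groups overlap, and DKK3 is the 1 member in which all squares lie well to the right of the circles at under 1 FPKM.

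Among the ligands, WNT9A had the largest difference. WNT9A (chr1:227918656-227947932), a ligand known in joint formation, was at 17.3, 11.4 and 14.5 CPM in siCTR and at 10.1, 8.91 and 9.27 CPM in siLSD1 libraries. All 3 siLSD1 values lay below the lowest siCTR value. The log2 fold change was −0.61 (SE 0.18), a level 65.6% of that in siCTR cells, with an unadjusted p of 0.0045 and an adjusted p of 0.131 in edgeR's quasi-likelihood test. In the GC-corrected fit it was −0.57 (adjusted p = 0.0431, edgeR). Its promoter was the most CpG-rich of those printed above.

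The other 3 tested ligand genes did not separate. WNT10B, by far the highest ligand gene per length, was at 42.1, 39.1 and 39.7 FPKM in siCTR and at 50.2, 46.7 and 37.7 FPKM in siLSD1 libraries. siLSD1 replicate 3 lay below all siCTR libraries and the other siLSD1 libraries above them. Its log2 fold change was 0.15 (SE 0.12, edgeR's adjusted p = 0.607), with 0.071 in the absence of siLSD1 replicate 1 and 0.26 in that of siLSD1 replicate 3. WNT5A, a ligand mostly of the branch without beta-catenin, had 0.06 (SE 0.13), and WNT7B had −0.10 (SE 0.16).

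3 ligand genes were too low to test. WNT3 reads were 0, 1 and 1 in siCTR and 1, 2 and 2 in siLSD1 libraries, and WNT10A had 0, 1 and 0 against 3, 3 and 1. WNT11 reads were 13, 9 and 2 in siCTR and 4, 3 and 1 in siLSD1 libraries, and the groups overlapped. The ligand secretion genes WLS, the carrier that brings WNT to the cell surface, and PORCN, the enzyme that attaches its lipid, had log2 fold changes of 0.0005 (SE 0.11) and 0.04 (SE 0.13). WLS ranged from 22.6 to 24.6 FPKM over all 6 libraries, which is a narrow range.

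The receptor genes, the role with the most members, all had the same sign. All 12 tested had a log2 fold change below 0, from −0.46 to −0.01 with a median of −0.08, where 52.7% of all tested genes lay below 0. Only FZD3 had an unadjusted p under 0.05, and 0 passed the adjusted threshold with edgeR's quasi-likelihood test. The groups did not overlap in FZD1 and FZD3. Relative to the siCTR mean, the siLSD1 libraries had 10, 9 and 9 of the 12 receptor genes below it, and the siCTR libraries themselves had 5, 7 and 4.

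The count of receptor genes below 0 depended on the libraries used. It was 8 of 12 without siCTR replicate 1, in which the median receptor gene lay 0.12 above the siCTR mean on the log2 scale. It was 10 or 11 of 12 without any other library, and 11 of 12 in the GC-corrected fit and with limma-voom. The genes share libraries and are not replicates of each other.

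**Figure D3:**
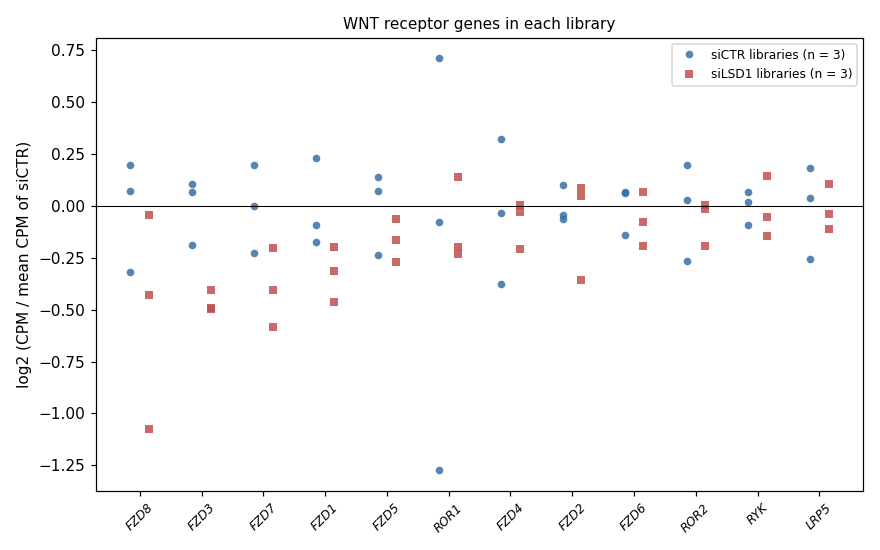
Log2 of the CPM of each of the 12 receptor genes over its siCTR mean, with circles for the 3 siCTR and squares for the 3 siLSD1 libraries. The 3 squares of FZD3 lie between −0.50 and −0.41, below all its circles, whereas squares and circles overlap in FZD6, ROR2, RYK and LRP5.

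FZD3, a Frizzled receptor used in axon guidance and planar polarity, was at 11.9, 14.2 and 14.6 CPM in siCTR and at 9.69, 10.3 and 9.64 CPM in siLSD1 libraries. The siLSD1 values were close to each other and below every siCTR value. Its log2 fold change was −0.46 (SE 0.15, unadjusted p = 0.0099, adjusted p = 0.185, edgeR), a level 72.5% of that in siCTR cells. FZD1 (−0.32, SE 0.16), FZD7 (−0.39, SE 0.20) and FZD8 (−0.46, SE 0.28) had differences of similar size with wider intervals. FZD8 was low, at 1.04 ± 0.18 FPKM in siCTR and 0.76 ± 0.27 FPKM in siLSD1 libraries (SD, n = 3). Against the siCTR mean, siLSD1 replicates 1 to 3 of FZD8 were at log2 values of −0.04, −0.43 and −1.08, so replicate 3 lay farthest below.

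The receptor genes with the highest levels had values near 0. RYK, a receptor with an inactive kinase domain, was at 43.4, 47.2 and 46.4 FPKM in siCTR and at 41.8, 43.9 and 50.3 FPKM in siLSD1 libraries. Its log2 fold change was −0.01 with a 95% interval of −0.26 to 0.23, and that of the co-receptor gene LRP5 was −0.01 with an interval of −0.29 to 0.26. FZD6 and FZD2, at 26.8 and 23.3 FPKM in siCTR cells, had −0.07 and −0.06. Of the receptor kinases that bind WNT5A, ROR2 had −0.06 (SE 0.14), and ROR1, at 0.14 FPKM the lowest tested receptor gene, had −0.08 with an interval of −1.11 to 0.94.

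DKK3 rose from a very low level. DKK3 (chr11:11956207-12009769) belongs to the Dickkopf family of secreted proteins, whose member DKK1 blocks LRP co-receptors, although DKK3 is a divergent member. It was counted 8, 7 and 7 times in siCTR and 27, 26 and 18 times in siLSD1 libraries, which is 0.616, 0.545 and 0.521 CPM against 2.01, 2.09 and 1.33 CPM. Every siLSD1 library had more reads of it than any siCTR library. Only the siLSD1 counts reached the filter's minimum of 10 reads, so DKK3 was tested because of the group in which it was high. The log2 fold change was 1.67 (SE 0.38, 95% interval 0.86 to 2.49, adjusted p = 0.048, edgeR's quasi-likelihood test, Benjamini-Hochberg), a 3.19-fold level.

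The call for DKK3 lay close to the threshold. Leaving out siCTR replicate 1, 2 or 3 gave adjusted p-values of 0.0961, 0.151 and 0.161, and leaving out siLSD1 replicate 1, 2 or 3 gave 0.134, 0.214 and 0.0425 (edgeR), with log2 fold changes from 1.57 to 1.85. In GENCODE release 44, 47.5% of the exonic bases of DKK3 are also exonic in USP47 on the opposite strand, and whether the counting used strand is not given in the sources used here. USP47, a deubiquitinase gene, was counted 3178, 3417 and 3658 times in siCTR and 3078, 3353 and 3953 times in siLSD1 libraries, with a log2 fold change of 0.02 (SE 0.12). Its part in the DKK3 counts was not tested. The endothelial marker genes CDH5 (1.60, edgeR's adjusted p = 0.083) and VWF (0.87, adjusted p = 0.0418) also had higher values, and PECAM1 was near 0. The summed level of these 3 endothelial genes was 0.605 to 1.035 FPKM in siCTR and about 1.70 FPKM in every siLSD1 library. Among 6 epithelial marker genes, CDH1 had 0.77 (SE 0.19, edgeR's adjusted p = 0.0699) and KRT18 had −0.32 (SE 0.13, adjusted p = 0.268), neither with overlap, and the summed level was 949.9 to 1129 FPKM in siCTR and 754 to 947 FPKM in siLSD1 libraries. The part of these cell type markers in the DKK3 result was not tested.

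DKK1, by contrast, was well expressed and did not separate. DKK1, the inhibitor of LRP co-receptors whose promoter held TCF/LEF words, was at 23.7, 33.5 and 26.9 FPKM in siCTR and at 31.4, 32.2 and 30.9 FPKM in siLSD1 libraries. The siCTR range enclosed all siLSD1 values. It had a log2 fold change of 0.17 (SE 0.14, edgeR's adjusted p = 0.621), which became 0.051 when siCTR replicate 1 was dropped and 0.33 when siCTR replicate 2 was. The WNT-binding antagonist gene WIF1 reads were 0, 1 and 0 in siCTR and 0, 0 and 1 in siLSD1 libraries and was not tested.

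The 3 dishevelled genes were at similar levels per length and did not separate. DVL2 was at 29.8, 22.8 and 27.5 FPKM in siCTR and at 32.2, 27.9 and 22.1 FPKM in siLSD1 libraries, so the groups covered the same range. The log2 fold changes were 0.04 for DVL2 (SE 0.15), 0.04 for DVL3 (SE 0.13) and −0.13 for DVL1 (SE 0.15). DVL1 was at 60.4 CPM in siLSD1 replicate 3 and between 76.6 and 93.7 CPM in all other libraries. Of its transcript bases, 67.5% are G or C.

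In the destruction complex, GSK3B was the gene with an unadjusted p under 0.05. GSK3B (chr3:119821321-120094994) encodes the kinase that phosphorylates beta-catenin for degradation. It was at 174, 149 and 167 CPM in siCTR and at 198, 205 and 208 CPM in siLSD1 libraries, with no overlap. The log2 fold change was 0.32 (SE 0.11, unadjusted p = 0.0104, adjusted p = 0.186, edgeR), a 1.25-fold level. In the GC-corrected fit it was 0.26 (adjusted p = 0.0439, edgeR).

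The paralogue GSK3A had −0.06 (SE 0.14), with overlapping groups. The scaffold gene AXIN1 had 0.06 (SE 0.11), the scaffold gene APC had −0.13 (SE 0.15), and APC2, the lower of the APC genes at 4.30 FPKM in siCTR cells, had −0.29 (SE 0.21). APC2 was at 25.5 CPM in siLSD1 replicate 3 and at 46.6 to 56.5 CPM elsewhere, and 69.2% of its transcript bases are G or C. Without that library its log2 fold change was −0.04. CSNK1A1, which primes beta-catenin for GSK3, was at 46.9, 55.3 and 51.6 FPKM in siCTR and at 51.9, 55.7 and 58.2 FPKM in siLSD1 libraries. Its groups overlapped, with a log2 fold change of 0.11 (SE 0.11) that ranged from 0.037 (siCTR replicate 1 left out) to 0.18 (siCTR replicate 2 left out). The complex had 3 genes above and 3 below 0.

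Beta-catenin mRNA was at nearly the same level in both groups. CTNNB1, which encodes it, was at 32.7, 35.7 and 33.1 FPKM in siCTR and at 32.6, 34.5 and 34.3 FPKM in siLSD1 libraries. The log2 fold change was −0.0020 with a 95% interval of −0.23 to 0.23 (edgeR's adjusted p = 0.995). Protein and its location were not measured.

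The 3 coactivator genes had values above 0. PYGO2 (chr1:154957026-154963853), a chromatin reader that joins beta-catenin through BCL9, was at 72.0, 71.1 and 68.3 CPM in siCTR and at 96.1, 90.4 and 77.2 CPM in siLSD1 libraries. The groups did not overlap, and siLSD1 replicate 3 was the closest to siCTR. PYGO2 had a log2 fold change of 0.32 (SE 0.12, unadjusted p = 0.018, adjusted p = 0.237, edgeR), and in the GC-corrected fit it was 0.33 (adjusted p = 0.0155, edgeR). The adaptor genes BCL9 (0.30, SE 0.17) and BCL9L (0.25, SE 0.19) had wider spreads, with BCL9L from 102 to 191 CPM within the siCTR group. BCL9 was at 0.50 without siCTR replicate 1 and 0.13 without siCTR replicate 2. In BCL9L 36.3% of the exonic bases are shared with CXCR5 on the opposite strand. Annotated exons of PYGO2 share 9.14% of their bases with SHC1 on the same strand, and SHC1 had a log2 fold change of 0.17 (SE 0.12).

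Both tested TCF/LEF factors were among the 7 members whose siLSD1 values lay wholly below siCTR, a pattern in 9.97% of all tested genes. LEF1 (chr4:108047545-108168956), a factor that brings beta-catenin to DNA and is itself a target of the pathway, was at 17.4, 20.3 and 20.3 CPM in siCTR and at 15.3, 12.8 and 15.1 CPM in siLSD1 libraries. LEF1 had a log2 fold change of −0.42 (SE 0.14, unadjusted p = 0.0117, adjusted p = 0.198, edgeR), a level 74.6% of that in siCTR cells. In the GC-corrected fit it was −0.45 (adjusted p = 0.0446, edgeR). The exons of LEF1 share 5.20% of their bases with the antisense gene LEF1-AS1, and reads in those bases cannot be told apart without strand.

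TCF7L2, the highest TCF/LEF gene, was at 5.78, 5.55 and 5.34 FPKM in siCTR and at 5.33, 4.21 and 4.51 FPKM in siLSD1 libraries. The highest siLSD1 value nearly met the lowest siCTR value, at 22.9 against 23.1 CPM. Its log2 fold change was −0.25 (SE 0.13, unadjusted p = 0.0885, edgeR). TCF7 reads were 14, 6 and 13 in siCTR and 9, 8 and 1 in siLSD1 libraries, and TCF7L1 had 5, 8 and 4 against 3, 8 and 5. Neither was tested, and their groups overlapped.

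Of the TLE corepressors, TLE4 alone had an unadjusted p under 0.05. TLE4, the highest of them, was at 26.1, 22.6 and 24.3 FPKM in siCTR and at 29.1, 28.6 and 29.9 FPKM in siLSD1 libraries, without overlap. On the log2 scale the difference was 0.26 (SE 0.10, unadjusted p = 0.0269, adjusted p = 0.276, edgeR). TLE1 had 0.13 (SE 0.13), TLE3 had −0.22 (SE 0.12) and TLE2, the lowest at 1.58 FPKM in siCTR cells, had −0.50 (SE 0.26). Without siCTR replicate 1 the value of TLE2 was −0.23, and in the GC-corrected fit it was −0.33. The differences of TLE2 and TLE3 from 0 had unadjusted p-values of 0.0748 and 0.103 (edgeR).

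The feedback genes, which are induced by the pathway or set receptor turnover, had no common direction. NKD1 (chr16:50548396-50649249), an inhibitor that binds dishevelled, was counted 93, 58 and 71 times in siCTR and 52, 39 and 55 times in siLSD1 libraries, or 7.16, 4.52 and 5.28 CPM against 3.87, 3.13 and 4.08 CPM. The groups did not overlap but siCTR replicate 2 was near the siLSD1 values. The log2 fold change was −0.61 (SE 0.24, unadjusted p = 0.0225, adjusted p = 0.259, edgeR), it was −0.72 in the GC-corrected fit (adjusted p = 0.0453, edgeR), and it was −0.41 without siCTR replicate 1.

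AXIN2, a scaffold gene that beta-catenin induces in most tissues, was counted 29, 23 and 26 times in siCTR and 40, 16 and 42 times in siLSD1 libraries. The siLSD1 values lay on both sides of the siCTR values, and the log2 fold change was 0.32 with an interval of −0.42 to 1.05. The ubiquitin ligase genes RNF43 and ZNRF3, which remove Frizzled receptors from the surface, had 0.33 (SE 0.37) and −0.13 (SE 0.13). RNF43 ranged from 0.048 to 0.65 when 1 library was left out, and 68.4% of its exonic bases, like 25.3% of those of AXIN2, are shared with another protein-coding annotation on the same strand. LGR4, which opposes these ligases when R-spondin is bound, was at 45.2, 46.7 and 52.7 FPKM in siCTR and at 42.8, 49.1 and 56.2 FPKM in siLSD1 libraries, with a log2 fold change of 0.03 (SE 0.13). Its paralogue LGR5 had at most 2 reads in any library and was not tested.

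Of the planar polarity genes, VANGL1 was at 6.99, 5.08 and 6.71 FPKM in siCTR and at 7.13, 6.28 and 6.98 FPKM in siLSD1 libraries, with overlapping groups and a log2 fold change of 0.12 (SE 0.13). PRICKLE1, a cytoplasmic partner of the VANGL proteins, was at 0.37 FPKM in siCTR cells with a log2 fold change of 0.26 (SE 0.27) that ranged from 0.093 to 0.46 when 1 library was left out. VANGL2 had 0 reads in all siCTR libraries and 2, 0 and 0 in siLSD1 libraries and was not tested.

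**Figure D4:**
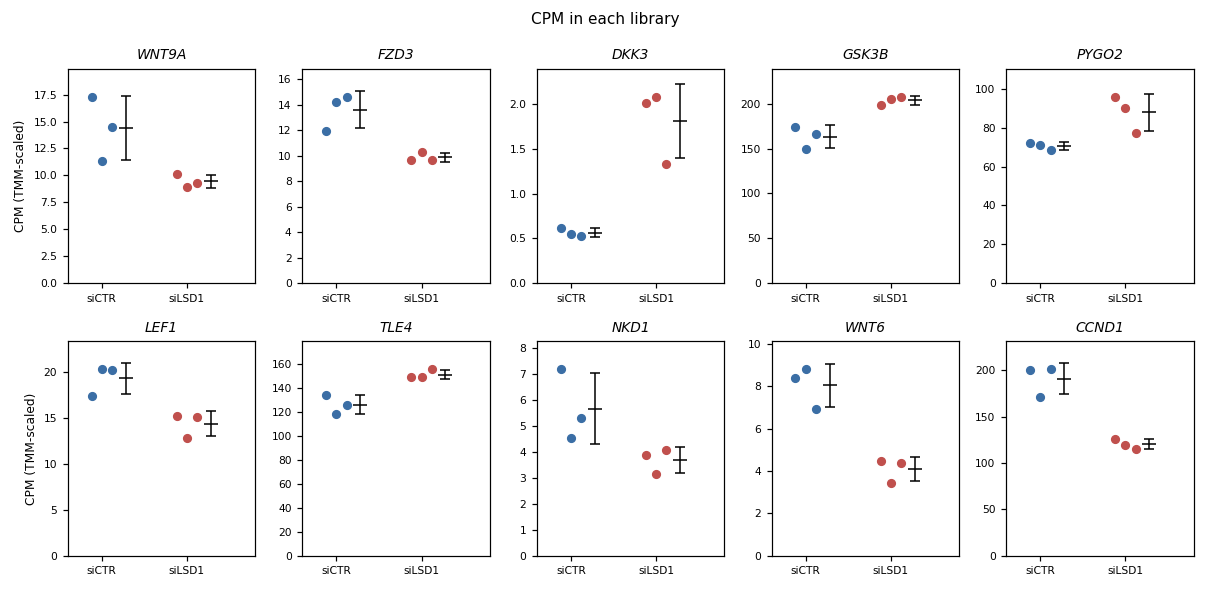
TMM-scaled CPM of the 8 members with an unadjusted p under 0.05 and of WNT6 and CCND1 in each library, with the mean and SD of each group beside the points (n = 3). The siLSD1 points lie wholly above the siCTR points in DKK3, GSK3B, PYGO2 and TLE4 and wholly below them in the other 6 genes.

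A second list of 142 other genes of the pathway, among them further ligands, regulators of beta-catenin turnover, nuclear cofactors and target genes, was read the same way. Of these, 120 had a row and 85 were tested. At an adjusted p under 0.05 edgeR's quasi-likelihood test called 0 higher and 2 lower (2.35%, against 0.371% of all tested genes). At an unadjusted p under 0.05, 6 were higher (7.06%, against 7.48% of all tested genes) and 10 were lower (11.8%, against 6.55%). The median log2 fold change was 0.02.

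The 2 genes that fell were WNT6 and CCND1. WNT6, a ligand gene on chromosome 2 next to WNT10A, was at 8.39, 8.80 and 6.92 CPM in siCTR and at 4.47, 3.45 and 4.37 CPM in siLSD1 libraries, without overlap. It fell by 0.97 on the log2 scale (SE 0.20, adjusted p = 0.0319, edgeR), to 51.2% of the siCTR level. In the GC-corrected fit the value was −0.59 (adjusted p = 0.146, edgeR), and 70.4% of its transcript bases are G or C. The adjusted p was 0.0735, 0.115 and 0.0587 without siCTR replicate 1, 2 or 3 and 0.0805, 0.182 and 0.0549 without siLSD1 replicate 1, 2 or 3 (edgeR).

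CCND1, the gene of cyclin D1 and a known beta-catenin target, was at 200.3, 172 and 201 CPM in siCTR and at 126, 120.0 and 116 CPM in siLSD1 libraries. The groups lay far apart for their spread. It fell by 0.67 on the log2 scale (SE 0.11, adjusted p = 0.0113, edgeR), to 63.0% of the siCTR level. In GENCODE release 44, 10.4% of its exonic bases are also exonic in LTO1 on the opposite strand, and LTO1 had a log2 fold change of −0.11 (SE 0.16). The adjusted p was 0.0618 without siCTR replicate 3 and 0.0902 without siLSD1 replicate 2 (edgeR).

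Of the other listed beta-catenin targets, JUN (0.30, SE 0.12), EDN1 (0.42, SE 0.14) and WISP2 (0.47, SE 0.16) had higher values at an unadjusted p under 0.05, opposite in sign to CCND1. The 17 tested targets had 9 values above and 8 below 0, with a median of 0.004. Among further regulators upstream of beta-catenin, AMER1 (−0.47, SE 0.18), CXXC5 (−0.45, SE 0.12, edgeR's adjusted p = 0.0795) and TMEM198 (−1.11, SE 0.49) had lower values. The AMER1 value was −0.68 with siCTR replicate 2 left out and −0.31 with siCTR replicate 1 left out. TMEM198 was counted 19, 17 and 16 times in siCTR and 16, 4 and 4 times in siLSD1 libraries, so siLSD1 replicate 1 was at the siCTR level, and its value was −2.07 without that library and −0.78 without siLSD1 replicate 3. The receptor genes FZD9 (−0.71, SE 0.29) and TSPAN12 (−0.64, SE 0.20) were on the side of the member receptors, and TMEM67 (0.35, SE 0.15) and PTK7 (0.23, SE 0.15) were not. FZD9 was at −0.46 in the GC-corrected fit. PTK7 was at 31.2 CPM in siCTR replicate 2 and between 44.2 and 48.2 CPM in all other libraries. The ligand-inactivating enzyme gene NOTUM had −0.62 (SE 0.26). The nuclear genes CBY1 (0.35, SE 0.16) and TBL1XR1 (−0.28, SE 0.11), and the polarity branch genes RAC1 (0.27, SE 0.12) and MAPK9 (−0.30, SE 0.12), completed those with an unadjusted p under 0.05.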

How the data were processed

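The 3 siCTR and 3 siLSD1 libraries of U2OS RNA were grouped by their labels. The authors used STAR for alignment, and their deposited table of 6 libraries holds whole read counts and FPKM for each gene. The genome build, annotation, counter and strand setting are not given in the sources used here. The authors' FPKM equalled read counts scaled by gene length and by the counted reads of the library, with 1 length per gene. The authors also deposited tables of 2 libraries each, a siCTR and a siLSD1 library of the same number. These held a second set of read counts, never lower for the 13106 genes in both sets, which served as an alternative. The deposited fold changes and p-values of the authors' own comparison (DESeq2) were not used.

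Counts were tested with edgeR 4.0.16 in R 4.3.3 (TMM, low counts removed by filterByExpr at a minimum of 10, quasi-likelihood test, no covariates), and p-values were adjusted by Benjamini-Hochberg over 11844 genes, which held 99.9% of all counts. The biological coefficient of variation was 12.6%. With 3 libraries per group an exact permutation test could not go below p = 0.1, so none was run. Alternatives were DESeq2 1.42.0, voom in limma 3.58.1, library-size scaling, no filter, and at least 1 CPM in 3 libraries. Further ones were a replicate block, leaving out each library, and the second counting. The last was a lowess correction (span 0.3) of each library for GC content and transcript length (the GC-corrected fit). Coordinates, GC content and exon overlaps came from GENCODE release 44 (GRCh38), promoters from RefSeq. GC content and transcript length were those of the longest transcript of each gene. Exons of 21 of the 54 members shared bases with a gene on the opposite strand and those of 9 with a gene on the same strand, and these overlaps were examined after the results were seen. Python 3.11.15 with pandas 2.3.3 did the rest. The procedure was tested on simulated counts.

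The members and the second list of pathway genes were chosen with earlier results of these data known. TLE5, CCN4 and CCN5 were matched as AES, WISP1 and WISP2. Genes named are KDM1A, members and listed pathway genes with an unadjusted p under 0.05, the highest, the lowest tested and the most changed member of each role, and members below the filter. Others (AXIN2, FZD1, GSK3A, PTK7, the remaining members and markers) were named after their values were seen. Libraries with the same replicate number had correlated deviations of 0.328, 0.0744 and 0.310, which was not above 0.1 in every pair, so the numbers were not taken to pair the libraries.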

Additional observations from a re-analysis of the deposited data

How the results depend on the processing

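The main counts were 1 member higher and 0 lower at an adjusted p under 0.05, and 4 and 4 at an unadjusted p under 0.05. For the 85 other pathway genes they were 0 and 2, and 6 and 10. The number of adjusted calls among members was small and moved with most settings. In the GC-corrected fit, 3 members were higher and 3 lower at the adjusted threshold and 7 and 9 at the unadjusted. For the other pathway genes these counts were 3, 5, 12 and 11. That fit called 871 of 11759 genes at the adjusted threshold and 24.3% at the unadjusted, against 171 and 14.0% in the main fit. limma-voom, library-size scaling and the second counting each gave 0 members higher, with adjusted p-values for DKK3 of 0.0599, 0.0541 and 0.0537 (limma-voom, then edgeR).

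The replicate block called 897 genes in place of 171 at the adjusted threshold, and 21.5% of all tested genes in place of 14.0% at the unadjusted. It gave 1 member lower (WNT9A, edgeR's adjusted p = 0.0104), 2 other pathway genes higher, 5 lower and 10 higher at the unadjusted threshold. Every library correlated best with that of its own number, which is a hint from the data. The authors' second set of counts also set same-numbered libraries side by side, but the labels state no pairing. A call lost or gained under the block is no measure of its effect.

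Leaving out 1 library gave 0 to 1 members higher and 0 lower at the adjusted threshold, which 58 to 136 of all tested genes passed in these fits. At the unadjusted threshold it gave 2 (without siCTR replicate 3 or siLSD1 replicate 2) to 6 (without siCTR replicate 1) higher and 2 (without siLSD1 replicate 2) to 6 (without siLSD1 replicate 1) lower. The share of all tested genes at that threshold moved as well, from 8.86% without siLSD1 replicate 2 to 14.3% without siCTR replicate 1. For the other pathway genes the ranges were 0 to 1 and 0 to 2 at the adjusted threshold, and 1 (without siLSD1 replicate 1) to 10 (without siCTR replicate 2) and 6 to 11 at the unadjusted. The median over members ranged from −0.07 to 0.03.

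Values near 0 changed sign. WLS was −0.0011 in the GC-corrected fit, −0.0025 with no filter and −0.022 with the second counting. DVL1 was 0.076 and LGR4 −0.0051 in the GC-corrected fit, ROR1 was 0.10 with limma-voom, and CTNNB1 was 0.0035 with the stricter filter and 0.00032 with library-size scaling. Without 1 library the ranges were −0.031 to 0.037 for WLS, −0.017 to 0.13 for PORCN, −0.10 to 0.049 for RYK, −0.44 to 0.45 for ROR1, −0.089 to 0.17 for DVL2, −0.072 to 0.12 for DVL3, −0.24 to 0.024 for DVL1, −0.036 to 0.051 for CTNNB1, −0.075 to 0.13 for LGR4 and −0.0015 to 0.19 for VANGL1. The cause was not tested. Over the tested genes named by rule, KDM1A excepted, and all alternatives, 538 values kept direction and side of the threshold. Of the rest, 26 changed sign, 20 gained the adjusted threshold and 17 lost it. Genes named after their values were seen were not counted. DKK3 had 7 or 8 reads in each siCTR library, which limits the precision of its fold change.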
